A study of Homo sapiens with 18 samples.

Results

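The ABC transporter family was followed across 18 RNA sequencing libraries of 2 human cancer cell lines. Its members were all gene rows with a symbol of subfamilies ABCA to ABCG and a mean expected count of at least 10 in any group, which gave 38 of 46 such rows among 27968 genes. A549 is a line from a lung cancer and MDA-MB-231 a line from a breast cancer. A549 cells, grown in DMEM with 10% serum, received a control siRNA or BLM siRNA1, siRNA2 or siRNA3, and MDA-MB-231 cells in the same medium received a control siRNA or BLM siRNA1. BLM encodes the Bloom helicase, a RecQ enzyme that unwinds recombination intermediates, and the comparison with the control siRNA asks what changes when it is lowered. There were 3 libraries in each of 6 groups. Each line was used as it is kept in culture, with no transgene named. The protocols mention flat and 3D culture and do not say which gave each library. Nor do they say that replicate libraries stem from different cultures, and the spread behind each p-value may therefore be technical. That siRNA1 is the same molecule in both lines was taken from its name.

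ABC proteins bind ATP with a conserved pair of nucleotide-binding domains and use its hydrolysis to move substrates across a membrane. ABCG2, ABCB1 and many ABCC proteins export drugs and conjugated metabolites, and high levels of them are known for reducing the effect of chemotherapy on tumour cells. ABCA and several ABCG proteins move lipids, ABCB6, ABCB8 and ABCB10 serve mitochondria and haem or iron handling, peroxisomal ABCD proteins carry fatty acids into that organelle, and ABCE1 and the ABCF proteins have no membrane domain and work with ribosomes.

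Promoter sequence was read from RefSeq (GRCh38.p14), whose promoter table matched 29 of the 38 members and gave 43 windows of 250 bases upstream of a listed start. The E box CACGTG, searched on both strands, stood in 8 of the 43 windows (18.6%) and in 6.3% of all 35116 windows. The core of the antioxidant response element, TGACNNNGC, stood in 9 windows (20.9%), against 10.9% of all windows, and the GC box GGGCGG in 24 (55.8%), against 42.6%. Stretches of 30 bases around the match are shown for 3 members with an E box and 3 with the antioxidant core, because these members differed between the groups described here. Capitals mark the match.
ABCG2: agcgcggcaggaCACGTGtgcgctttcagc
ABCA12: tgattaacaaatCACGTGgtagtcaatctt
ABCA1: gggccccggctcCACGTGctttctgctgag
ABCC4: gtctcctcccGCCGCGTCAcccgtcggtcc
ABCB6: cctgggcacgTGACCAAGCcggctctgctt
ABCA3: gcagggtggcTGACTGCGCacgcgcaagtc
All 6 are on the minus strand, at chr4:88159013-88159042 for ABCG2, chr2:215032221-215032250 for ABCA12, chr9:104928285-104928314 for ABCA1, chr13:95301581-95301610 for ABCC4, chr2:219219091-219219120 for ABCB6 and chr16:2340906-2340935 for ABCA3. In ABCC4 the core is read on the opposite strand. A match describes the letters in the window, and occupancy was not measured.

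BLM checked the labels. In A549 it was at 79.2, 82.4 and 72.2 CPM (counts scaled to library size) in control, 1.19, 1.17 and 1.17 with siRNA1, 10.3, 10.7 and 10.8 with siRNA2 and 6.42, 6.18 and 6.81 with siRNA3. In MDA-MB-231 it was at 33.5, 35.6 and 35.9 CPM in control and 5.23, 5.07 and 5.16 with siRNA1. Every library given a BLM siRNA thus lay below every control library of its line. Library totals ran from 30143047 to 40328208 expected counts. The third A549 siRNA3 library stood furthest from its group, with a standard deviation of 0.34 log2 units over genes against 0.17 to 0.26 in the other A549 libraries, and it is left out in turn where it matters. The epithelial markers KRT8, KRT18, EPCAM and CDH1 were all above 1 TPM (a level scaled to gene length and library size) in both lines, with a summed level of 5050 to 5300 TPM in A549 control libraries, 12700 to 14500 with siRNA1, 6360 to 6590 with siRNA2 and 5020 to 5360 with siRNA3. Within that list CDH1 was at 17.7 TPM in A549 control and at 68.5, 72.7 and 1.49 with siRNA1, siRNA2 and siRNA3, and EPCAM was at 2.69 and then 11.4, 66.2 and 2.01. The mesenchymal sum in A549 was 1060 to 1150 TPM in control, 1290 to 1320 with siRNA1, 1620 to 1670 with siRNA2 and 2060 to 2110 with siRNA3. In that list the means of VIM, CD44 and SPARC were above control with each siRNA. ZEB1 was at 13.4 TPM in control and at 9.65, 7.3 and 15.1 with siRNA1, siRNA2 and siRNA3. Of 6 alveolar type 2 markers none reached 1 TPM in A549 control libraries, and SFTPA1 was listed at 0. Among the leukocyte markers PTPRC and CD3E were at 0 in A549 control libraries, while CD68 was at 21.6 TPM in control, 24.0 with siRNA1, 32.4 with siRNA2 and 37.4 with siRNA3, and at 252 in MDA-MB-231 control. Endothelial markers summed to at most 0.44 TPM in A549. Fibroblast markers summed to 1.61 to 1.66 TPM in A549 control libraries and 9.48 to 11.2 with siRNA1. In MDA-MB-231 the mesenchymal sum was 3340 to 3380 TPM in control and 2260 to 2320 with siRNA1. There the means of VIM, CD44 and SPARC were lower with siRNA1, while ZEB1 was at 45.5 TPM in control and 48.9 with siRNA1. The part of these shifts in the transporter results was not tested, and in bulk RNA fewer cells of a type and less RNA per cell cannot be told apart.

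In A549, siRNA1 and siRNA2 were followed by more rises than falls in the family, and siRNA3 by more falls than rises. Calls are at a Benjamini-Hochberg adjusted p under 0.05 from edgeR over all genes tested. With siRNA1, 17 members rose, 9 fell, 9 were not called and 3 were not tested, where 39.0% of all tested genes rose and 32.8% fell. With siRNA2, 20 rose and 6 fell, against 32.5% and 28.4% of all genes. With siRNA3, 11 rose and 17 fell, against 30.9% and 30.4%. These counts hold members that met the minimum only through the group that rose. They are ABCA8 and ABCC11 with siRNA1 and ABCB4 with siRNA2. The filter on low counts passed 35 members, and their median log2 fold change was 0.21, 0.32 and -0.27, beside 0.09, 0.04 and 0.00 over all genes. In MDA-MB-231, siRNA1 was followed by 6 rises, 13 falls and 13 members without a call, with 6 not tested, against 27.5% and 27.8% of all genes (member median -0.06, all genes 0.01). As shares of the members tested, rises made up 48.6% with siRNA1, 57.1% with siRNA2 and 31.4% with siRNA3 in A549 and 18.8% in MDA-MB-231, and falls 25.7%, 17.1%, 48.6% and 40.6%. The share with siRNA3 that rose is thus near that of all genes. Not tested for low counts were ABCA4, ABCA6 and ABCC9 in A549 and ABCA8, ABCA12, ABCB4, ABCB11, ABCC8 and ABCC11 in MDA-MB-231. Calls kept under every alternative numbered 19 of 26, 17 of 26, 22 of 28 and 13 of 19 in these 4 comparisons. The 3 A549 comparisons share the same control libraries, so their values are given side by side.

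**Figure D1:**
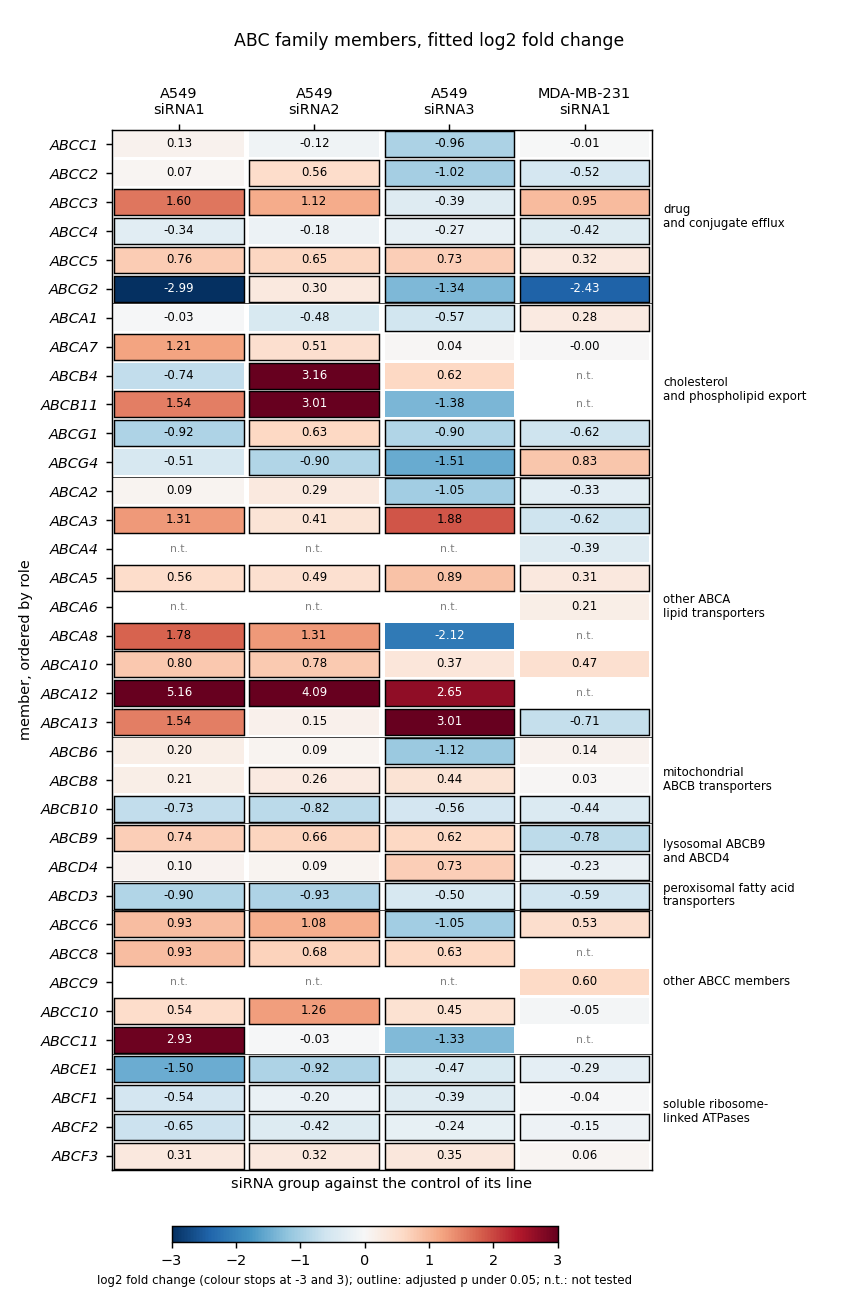
Fitted log2 fold change of family members (rows, by role) in each siRNA group against the control of its line (columns). Red is higher and blue lower than control, an outline marks an adjusted p under 0.05 and n.t. a member not tested; ABCG2 is at -2.99 and -2.43 with siRNA1 in the 2 lines and ABCA12 at 5.16, 4.09 and 2.65 in A549.

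Before any BLM siRNA, the 2 lines differed in 78.4% of the tested members, near the 81.0% of all genes that differed. Comparing the control groups, 14 members were higher in A549, 15 lower, 8 not called and 1 not tested, where 40.1% of all genes were higher and 40.9% lower. On the TPM scale, which allows levels of different genes to be compared, the highest member in A549 control was ABCC2, the canalicular exporter of conjugates, at 222 ± 19.7 TPM (SD, n = 3). ABCC1 (129 ± 13.5), ABCE1 (116 ± 2.33), ABCF2 (105 ± 7.54) and ABCC3 (103 ± 12.5) followed, and neighbours among these 4 overlapped between libraries. In MDA-MB-231 control the order was led by 3 soluble ATPases, ABCF1 (140 ± 4.92 TPM), ABCE1 (130 ± 11.6) and ABCF2 (91.7 ± 1.91), of which the first and second overlapped. ABCC2 stood at 0.96 ± 0.15 TPM there, and the log2 difference in CPM between the lines was 8.11 ± 0.10 (standard error, adjusted p 4.74e-18). The other efflux genes ABCC3, ABCC1, ABCC4 and ABCG2 were higher in A549 by 3.03 ± 0.08, 2.12 ± 0.08, 1.63 ± 0.06 and 1.62 ± 0.08, and ABCC5 was lower by -0.52 ± 0.06. The mitochondrial ABCB10, ABCB8 and ABCB6 were higher in A549, by 0.93 ± 0.09, 1.26 ± 0.10 and 1.76 ± 0.08. Higher in MDA-MB-231 were the lysosomal ABCD4 (-1.37 ± 0.07) and ABCC10 (-1.38 ± 0.12). All 29 calls held in every alternative run. The line and anything else that differed between the cultures cannot be told apart.

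**Figure D2:**
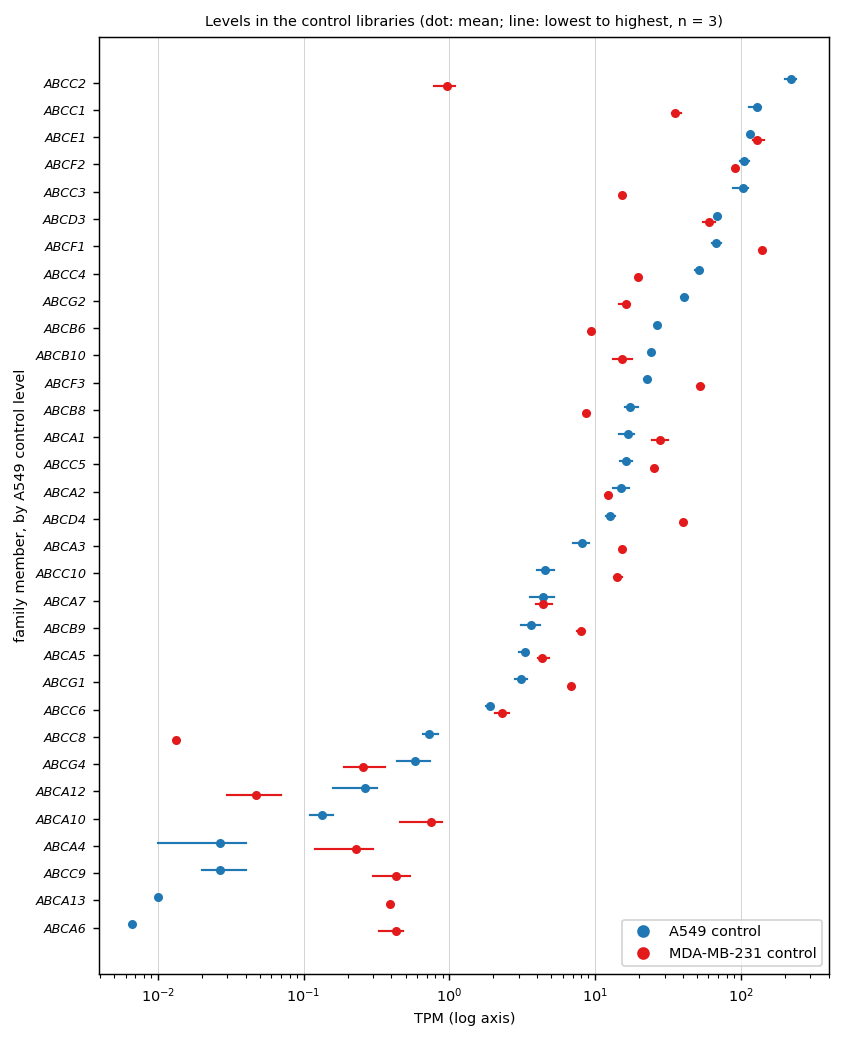
TPM on a log axis in the control libraries of A549 (blue) and MDA-MB-231 (red) for members whose mean reached 0.1 TPM in either line; dots are means, lines run from the lowest to the highest of 3 libraries. ABCC2 leads in A549 at 222 TPM and is at 0.96 in MDA-MB-231, while the soluble ATPases are high in both.

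ABCG2, the breast cancer resistance protein, which exports drugs, urate and porphyrins, was the efflux gene that fell furthest. In A549 control libraries it was at 97.6, 91.8 and 91.6 CPM, and with siRNA1 at 11.6, 12.2 and 11.5 CPM. With siRNA2 it was at 116, 115 and 114 CPM and with siRNA3 at 36.4, 35.7 and 38.9. All siRNA1 and siRNA3 libraries were below all controls, whereas all siRNA2 libraries were above them. The log2 fold changes were -2.99 ± 0.07 with siRNA1 (7.95-fold lower, adjusted p 7.13e-13), 0.30 ± 0.07 with siRNA2 (adjusted p 0.00155) and -1.34 ± 0.07 with siRNA3 (adjusted p 3.23e-09). In MDA-MB-231 it was at 33.0, 29.5 and 32.5 CPM in control and 5.83, 5.26 and 6.53 with siRNA1. Again no siRNA1 library reached a control library, and the log2 fold change was -2.43 ± 0.09 (adjusted p 4.87e-08). The siRNAs thus gave ABCG2 values on both sides of control. Mean BLM in A549 was 1.18 CPM with siRNA1, 10.6 with siRNA2 and 6.47 with siRNA3, against 77.9 in control. The part of BLM in the ABCG2 values was not tested, and the depth of the knockdown and the siRNA used cannot be told apart.

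ABCC3, a basolateral exporter of glucuronides and bile acids, rose with siRNA1 in both lines. Its A549 libraries had 289, 251 and 296 CPM in control, 839, 782 and 915 with siRNA1, 642, 580 and 597 with siRNA2, and 220, 231 and 188 with siRNA3. The siRNA1 and siRNA2 libraries lay above all controls and the siRNA3 libraries below them. Log2 fold changes were 1.6 ± 0.10 (adjusted p 6.62e-09), 1.12 ± 0.10 (adjusted p 4.57e-07) and -0.39 ± 0.10 (adjusted p 0.00333). In MDA-MB-231 it went from 35.7, 34.4 and 36.1 CPM to 72.0, 64.5 and 69.2, without overlap, by 0.95 ± 0.06 (adjusted p 1.22e-06).

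ABCC2 separated the 3 siRNAs in another order. Its A549 values were 690, 611 and 645 CPM in control, 683, 651 and 705 with siRNA1, 1020, 963 and 881 with siRNA2, and 346, 340 and 271 with siRNA3. Those with siRNA1 overlapped the controls, those with siRNA2 were all higher and those with siRNA3 all lower. The log2 fold changes were 0.07 ± 0.10 (adjusted p 0.547), 0.56 ± 0.10 (adjusted p 0.00022) and -1.02 ± 0.10 (adjusted p 9.75e-07). In MDA-MB-231 it was near the low end of detection, at 2.55, 2.06 and 2.66 CPM in control and 1.66, 1.94 and 1.47 with siRNA1. This difference was -0.52 ± 0.17 with an adjusted p of 0.0247, and it was not called by the DESeq2 Wald test (adjusted p 0.0647) or without any 1 of 4 of the 6 libraries: 0.0721 without siRNA1 replicate 1, 0.0907 without siRNA1 replicate 3, 0.0715 without control replicate 1 and 0.0567 without control replicate 3.

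ABCC1, the broad exporter of glutathione conjugates, fell with siRNA3 only among the A549 calls. It was at 472, 417 and 478 CPM in control, 503, 462 and 532 with siRNA1, 443, 427 and 387 with siRNA2, and 244, 267 and 192 with siRNA3. The siRNA3 libraries were all below the controls (-0.96 ± 0.11, adjusted p 7.08e-06; -0.83 ± 0.09 without the third siRNA3 library), and the other groups overlapped the controls at 0.13 ± 0.11 and -0.12 ± 0.11. In MDA-MB-231 ABCC1 was at 119, 109 and 98.9 CPM in control and 111, 106 and 109 with siRNA1, an overlap with a difference of -0.01 ± 0.07 (adjusted p 0.93). The scale matters for siRNA1 in A549, where the deposited TPM values put the median of all genes 0.23 above control on log2(TPM + 1), beside 0.09 in the count fit. On that TPM scale ABCC1 and ABCC2 were called higher with siRNA1 at 0.39 and 0.32.

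ABCC4, an exporter of cyclic nucleotides and prostaglandins, moved little. A549 libraries had 163, 154 and 157 CPM in control, 123, 129 and 122 with siRNA1, 139, 140 and 140 with siRNA2, and 131, 143 and 120 with siRNA3. All siRNA libraries were below all controls, and the calls were lower with siRNA1 (-0.34 ± 0.07, adjusted p 0.001) and siRNA3 (-0.27 ± 0.07, adjusted p 0.00678) but not siRNA2 (-0.18 ± 0.07, adjusted p 0.051). On log2(TPM + 1) the siRNA1 and siRNA3 values were -0.08 and -0.27 and neither was called. MDA-MB-231 libraries had 54.4, 52.9 and 52.5 CPM in control and 40.8, 37.7 and 40.7 with siRNA1, which did not overlap (-0.42 ± 0.06, adjusted p 0.000172).

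ABCC5, a related exporter of nucleotide analogues and cyclic nucleotides, rose in all 4 comparisons. It was at 32.0, 32.1 and 35.3 CPM in A549 control, 56.4, 55.5 and 56.2 with siRNA1, 55.0, 52.5 and 48.2 with siRNA2, and 59.9, 57.9 and 46.9 with siRNA3. No siRNA library overlapped a control, and the log2 fold changes were 0.76 ± 0.09, 0.65 ± 0.09 and 0.73 ± 0.09 (largest adjusted p 4.63e-05). In MDA-MB-231 it went from 48.4, 49.2 and 50.5 CPM to 63.3, 60.8 and 60.7, by 0.32 ± 0.05 (adjusted p 0.000623). An antisense gene overlaps ABCC5, and whether the counting used strand is not given in the sources used here.

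ABCB1, the P-glycoprotein, was under the minimum and was not tested. It had 1, 0 and 1 expected counts in the A549 control libraries, 2, 2 and 5 with siRNA1, 3, 2 and 0 with siRNA2, 1, 3 and 2 with siRNA3, 1, 1 and 0 in MDA-MB-231 control and 1, 1 and 1 with siRNA1. No library exceeded 0.07 TPM, and at this depth no difference was detectable.

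**Figure D3:**
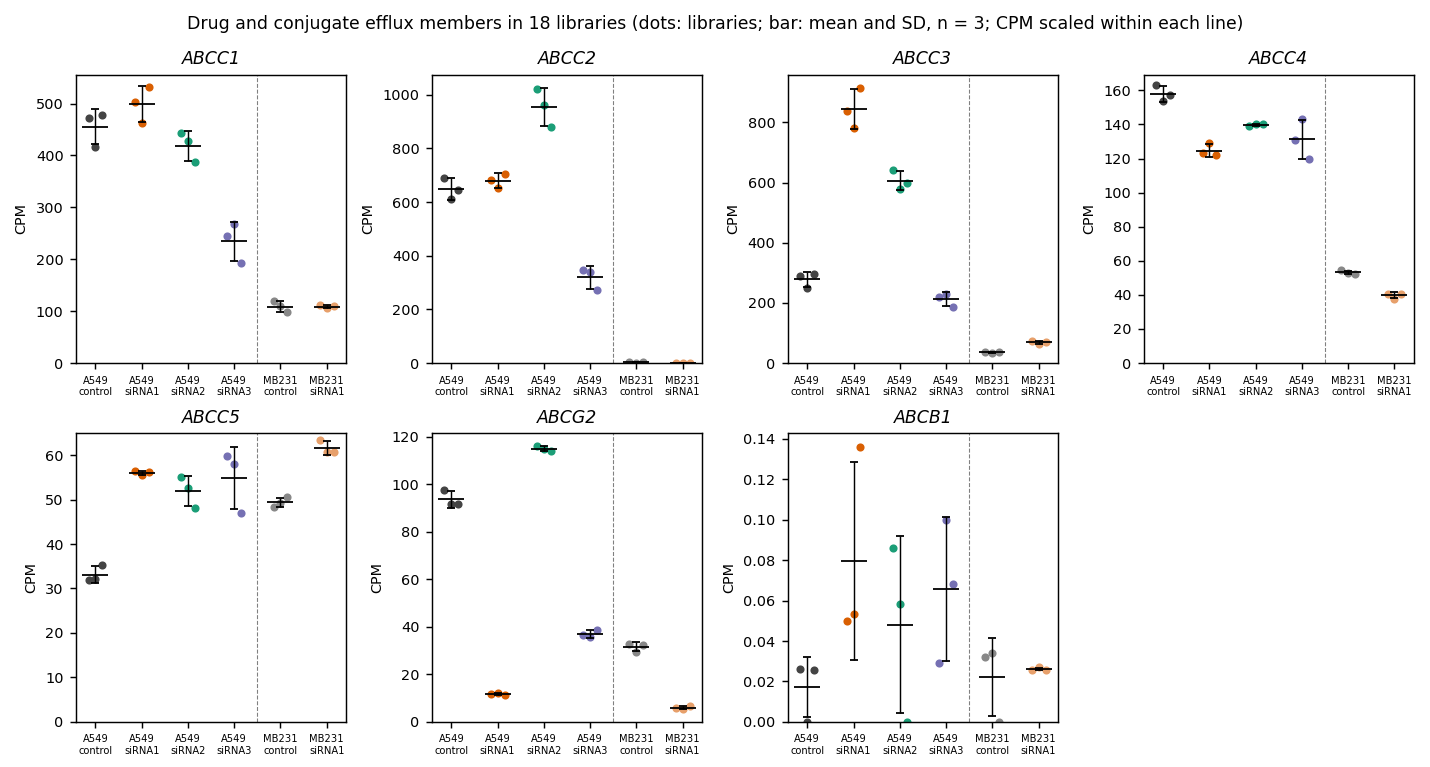
CPM of the 7 drug and conjugate efflux genes in the 18 libraries by group; dots are libraries, the bar and whiskers the mean and SD of 3, and the dashed line separates the 2 lines, whose CPM were scaled separately. ABCG2 with siRNA1 sits at 11.5 to 12.2 CPM against 91.6 to 97.6 in A549 control, and ABCC3 at 782 to 915 against 251 to 296.

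Summed per length, the 7 efflux genes held 597.6, 505.4 and 584.9 TPM in the A549 control libraries. The sum was 886.6, 880.9 and 935.4 TPM with siRNA1, 881.4, 826.5 and 824.5 with siRNA2, and 382.5, 382.6 and 261.1 with siRNA3. No A549 siRNA group overlapped the controls in this sum, and siRNA3 alone lay below them. On log2(TPM + 1) the median of all genes was itself 0.23 above control with siRNA1 and 0.09 with siRNA2. ABCC1 and ABCC2 were higher in TPM with siRNA1, while the count fit gave 0.13 and 0.07 and did not call them. The part of the scale in the sum was not tested. The mean share of these genes in all TPM of the family was 50.3%, 64.7%, 63.2% and 42.4%. In MDA-MB-231 the sum was 113 ± 4.05 TPM in control and 121 ± 4.92 with siRNA1, or 14.4% and 16.1% of the family. ABCC1, ABCC2 and ABCC3 made up most of the A549 sum, at 454 ± 44.1 TPM in control and 817 ± 33.9 with siRNA1. ABCG2, at 41 ± 2.17 TPM in A549 control, was a small part of it, so its fall and the higher sum with siRNA1 stood side by side.

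Of the 6 exporters of cholesterol, phospholipid and bile salt, 2 rose and 1 fell with siRNA1 in A549, 4 rose and 1 fell with siRNA2, and 0 rose and 3 fell with siRNA3. Over all genes 39.0%, 32.5% and 30.9% rose and 32.8%, 28.4% and 30.4% fell with these siRNAs. The siRNA2 rises were ABCG1, ABCA7, ABCB4 and ABCB11, and the fall was ABCG4. Of these, the calls of ABCA7 and ABCG4 were each lost in at least 1 fit that left out 1 library. ABCB4 and ABCB11 had few counts. ABCG1, which passes cholesterol to high-density lipoprotein, was at 4.68, 4.53 and 5.21 CPM in A549 control, 2.39, 2.32 and 2.92 with siRNA1, 8.06, 6.93 and 7.42 with siRNA2 and 1.89, 2.94 and 2.96 with siRNA3. The siRNA2 libraries were above and the others below all controls, as for ABCG2, at 0.63 ± 0.15, -0.92 ± 0.16 and -0.90 ± 0.16 (largest adjusted p 0.00232). It also fell in MDA-MB-231, from 9.25, 9.46 and 8.85 CPM to 6.03, 4.72 and 7.15 (-0.62 ± 0.14, adjusted p 0.00419).

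ABCA1, which loads cholesterol onto apolipoprotein A-I, was at 95.4, 86.4 and 105 CPM in A549 control and 88.3, 102 and 90.6 with siRNA1, an overlap. With siRNA2 it was at 70.4, 65.0 and 69.7 CPM, all below all controls, and the difference of -0.48 ± 0.20 was not called (adjusted p 0.0545). It was called when the 2 groups were fitted alone (-0.50, adjusted p 9.62e-05), with DESeq2 size factors (0.0347), by the DESeq2 Wald test (0.0191), without the filter (0.0251) and without siRNA3 replicate 1 (0.0413), 2 (0.0317) or 3 (0.000111). With siRNA3 it was at 78.4, 77.0 and 37.0 CPM, and its call (-0.57 ± 0.20, adjusted p 0.0255) became -0.30 ± 0.09 (adjusted p 0.00952) without the third library. That call was lost without control replicate 1 (adjusted p 0.0551) or control replicate 3 (0.0839). In MDA-MB-231 ABCA1 rose from 136, 126 and 150 CPM to 166, 157 and 177 (0.28 ± 0.07, adjusted p 0.00835).

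ABCA7, a phospholipid exporter, rose with siRNA1 in A549 from 15.8, 13.6 and 18.9 CPM to 40.2, 31.1 and 40.8 (1.21 ± 0.18, adjusted p 4.78e-05), with all siRNA1 libraries above all controls. With siRNA3 it overlapped the controls (0.04 ± 0.19), as it did in MDA-MB-231 with siRNA1 (0.00 ± 0.10). ABCG4, a close relative of ABCG1, fell with siRNA3 in A549 (-1.51 ± 0.30, adjusted p 0.000558), from 34 to 54 counts a library to 7 to 16. The bile salt pump ABCB11 and the phosphatidylcholine flippase ABCB4 rose with siRNA2 from 1 to 4 counts a library to 15 to 25 (3.01 ± 0.50 and 3.16 ± 0.51, adjusted p 0.000155 and 0.000126). Both are close to the limit of detection, at under 1 CPM in every library. ABCB4 met the minimum for members only through the A549 siRNA2 group, so the rule selected for its rise. ABCB11 met it through A549 siRNA2 (mean 17.67 counts) and MDA-MB-231 siRNA1 (10.67) and through no other group.

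Among the 9 other ABCA lipid transporters, of which 7 were tested in A549, 6 rose and 0 fell with siRNA1, 5 rose and 0 fell with siRNA2, and 4 rose and 1 fell with siRNA3. In MDA-MB-231, where 7 were also tested, 1 rose and 3 fell with siRNA1. In these 4 comparisons 39.0%, 32.5%, 30.9% and 27.5% of all genes rose and 32.8%, 28.4%, 30.4% and 27.8% fell. ABCA12, the keratinocyte transporter of glucosylceramide, rose most. Its A549 libraries were at 1.56, 0.804 and 1.46 CPM in control, 46.7, 43.5 and 46.8 with siRNA1, 23.3, 22.4 and 20.0 with siRNA2, and 9.32, 9.98 and 4.73 with siRNA3. Each siRNA group lay above all controls, at 5.16 ± 0.26 (adjusted p 8.92e-10), 4.09 ± 0.26 (adjusted p 2.48e-08) and 2.65 ± 0.27 (adjusted p 1.65e-06). In MDA-MB-231 it had 3 to 9 counts a library and was not tested.

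ABCA3, the lamellar body transporter of surfactant lipid in alveolar type 2 cells, rose with all 3 siRNAs in A549 and fell in MDA-MB-231. It was at 29.3, 26.1 and 32.0 CPM in A549 control, 74.8, 64.8 and 77.1 with siRNA1, 40.6, 38.1 and 37.5 with siRNA2 and 122, 124 and 75.5 with siRNA3. Every siRNA library was above every control, by 1.31 ± 0.16 (adjusted p 4.95e-06), 0.41 ± 0.16 (adjusted p 0.0349) and 1.88 ± 0.16 (adjusted p 3.23e-07). The siRNA2 call is weak: without siRNA2 replicate 1, 2 or 3 the adjusted p was 0.0956, 0.0648 or 0.0547, and without control replicate 1 or 2 it was 0.0762 or 0.128. In MDA-MB-231 it went from 48.2, 47.0 and 45.7 CPM to 30.2, 30.4 and 31.1, again without overlap (-0.62 ± 0.05, adjusted p 1.03e-05). The summed alveolar type 2 markers were at 0.68 to 0.91 TPM in A549 control, 2.97 to 3.66 with siRNA1, 1.69 to 1.93 with siRNA2 and 1.03 to 1.46 with siRNA3. In MDA-MB-231 they were at 1.77 to 2.23 in control and 1.05 to 1.67 with siRNA1. With siRNA1 in A549, NAPSA was at 1.58 TPM and LAMP3 at 1.32, and SFTPA1 and SFTPC were at 0. The part of these markers in the ABCA3 result was not tested.

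ABCA2, a lysosomal sterol transporter of neural cells, fell with siRNA3 from 64.1, 60.7 and 74.3 CPM to 36.2, 37.0 and 22.6 (-1.05 ± 0.16, adjusted p 7.22e-05; -0.86 ± 0.12 without the third siRNA3 library) and overlapped the controls with siRNA1 and siRNA2. In MDA-MB-231 it fell from 49.4, 46.2 and 45.4 CPM to 36.3, 36.8 and 38.8 (-0.33 ± 0.06, adjusted p 0.00106). ABCA5, also lysosomal, rose with siRNA3 from 16.1, 16.8 and 14.3 CPM to 32.7, 28.9 and 25.9 (0.89 ± 0.18, adjusted p 0.000621) and in MDA-MB-231 from 17, 18 and 19.4 CPM to 21.5, 21.7 and 24.3 (0.31 ± 0.08, adjusted p 0.00714). The smaller siRNA1 value in A549 (0.56 ± 0.18) was lost without siRNA1 replicate 2 (adjusted p 0.0745). ABCA8 had 2, 3 and 7 counts in the A549 control libraries, 16, 12 and 14 with siRNA1 and 10, 6 and 11 with siRNA2 (1.78 ± 0.50 and 1.31 ± 0.54, adjusted p 0.00564 and 0.0486). It met the minimum for members only through the A549 siRNA1 group. The rule thus selected for its siRNA1 rise, which is among the siRNA1 rises counted for this role. ABCA10 had 14, 17 and 21 counts in control, then 27, 35 and 28 with siRNA1, and 23, 26 and 31 with siRNA2 (0.80 ± 0.27 and 0.78 ± 0.27, adjusted p 0.016 and 0.0225). The siRNA1 call of ABCA10 was lost in at least 1 fit without 1 library and in at least 1 other alternative. Except for ABCA12, each siRNA2 rise of this group (ABCA3, ABCA5, ABCA8 and ABCA10) was lost when certain single libraries were left out, with adjusted p up to 0.128, 0.14, 0.163 and 0.089. ABCA8, ABCA9, ABCA6, ABCA10 and ABCA5 neighbour each other on chromosome 17. ABCA13 had 2 to 4 counts in A549 control libraries, 4 to 10 with siRNA1 and 15 to 22 with siRNA3 (1.54 ± 0.47 and 3.01 ± 0.40, adjusted p 0.00948 and 2.31e-05), neither called on log2(TPM + 1). In MDA-MB-231 it had 98 to 109 counts in control and 70 to 84 with siRNA1 (-0.71 ± 0.13, adjusted p 0.00144). That call was lost in at least 1 alternative other than leaving out 1 library.

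**Figure D4:**
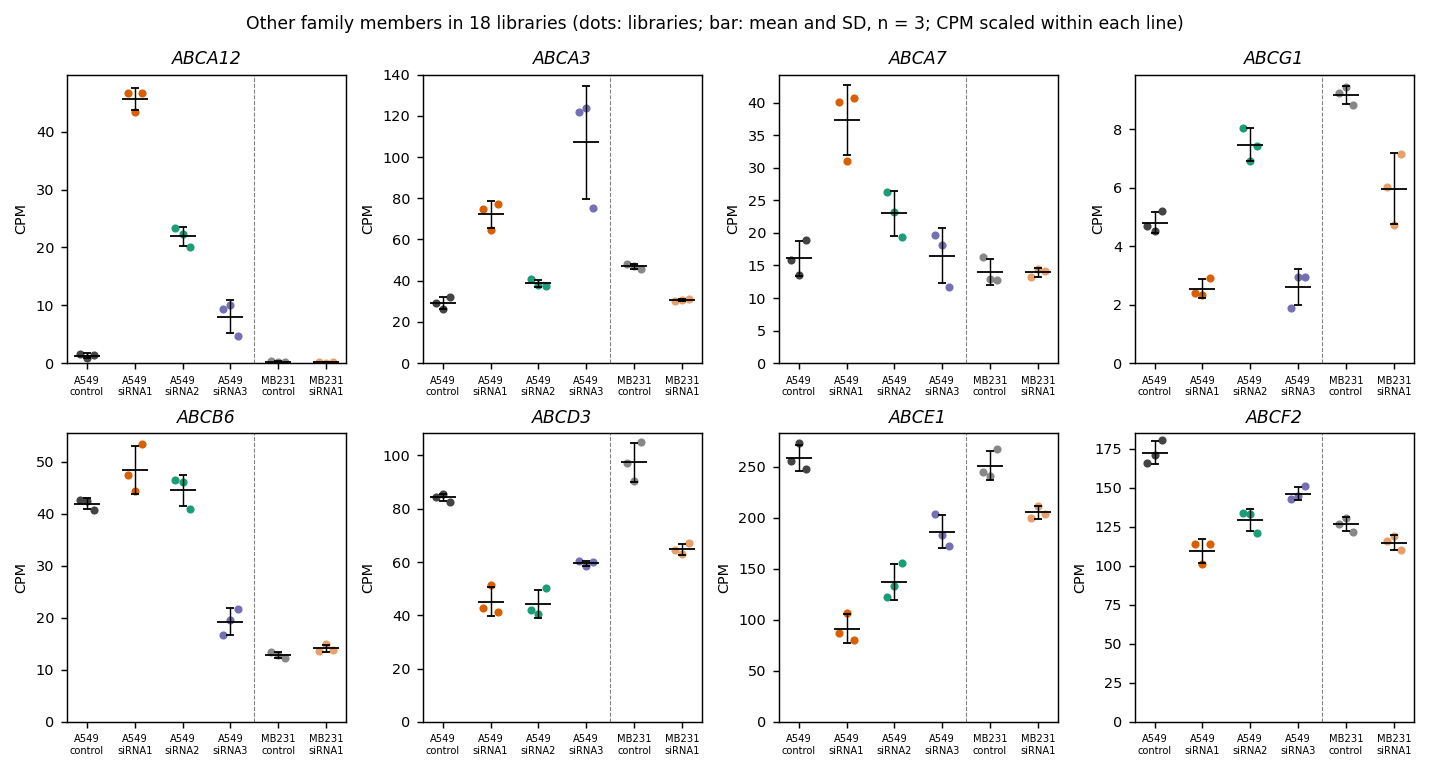
CPM of 8 other members by group; dots are libraries, the bar and whiskers the mean and SD of 3, and the dashed line separates the lines, whose CPM were scaled separately. ABCA12 reaches 43.5 to 46.8 CPM with siRNA1 in A549 against 0.804 to 1.56 in control, and ABCE1 is lowest with siRNA1.

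The mitochondrial members moved unevenly. ABCB10, an exporter needed for haem synthesis, fell in all 4 comparisons. It was at 47.2, 51.0 and 49.5 CPM in A549 control, 28.3, 32.1 and 28.6 with siRNA1, 25.7, 24.9 and 33.0 with siRNA2 and 37.8, 32.5 and 29.9 with siRNA3, with no overlap between siRNA and control libraries. Log2 fold changes were -0.73 ± 0.11, -0.82 ± 0.11 and -0.56 ± 0.11, and -0.44 ± 0.09 in MDA-MB-231 (largest adjusted p 0.00213). ABCB6, a porphyrin transporter, fell with siRNA3 alone among the calls, from 42.7, 42.5 and 40.7 CPM to 16.6, 19.5 and 21.7 (-1.12 ± 0.10, adjusted p 7.72e-07), and it differed from siRNA1 and siRNA2 in the direct tests (siRNA1 against siRNA3 1.33, adjusted p 1.05e-07; siRNA2 against siRNA3 1.21, adjusted p 3.86e-07). On log2(TPM + 1) ABCB6 was also called with siRNA1, at 0.45. ABCB8, a subunit of a mitochondrial potassium channel, rose with siRNA3 by 0.44 ± 0.10 (adjusted p 0.00185).

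Of the lysosomal pair, the peptide transporter ABCB9 rose in A549 and fell in MDA-MB-231. Its A549 libraries were at 6.32, 5.84 and 7.31 CPM in control and 11.7, 8.98 and 11.9 with siRNA1, and those of MDA-MB-231 at 13.4, 12.6 and 11.5 in control and 5.85, 8.87 and 7.05 with siRNA1. Neither pair of groups overlapped, at 0.74 ± 0.12 (adjusted p 8.97e-05) and -0.78 ± 0.14 (adjusted p 0.00109). With siRNA2 and siRNA3 it rose by 0.66 ± 0.12 and 0.62 ± 0.12. ABCD4, which takes part in lysosomal cobalamin release, rose with siRNA3 from 20.2, 20.1 and 22.2 CPM to 33.9, 34.3 and 35.2 (0.73 ± 0.08, adjusted p 4.75e-06).

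In the peroxisome, ABCD3, which imports branched and long-chain acyl-CoA, fell in all 4 comparisons. It was at 84.5, 85.5 and 82.7 CPM in A549 control, 42.6, 51.3 and 41.4 with siRNA1, 41.9, 40.6 and 50.3 with siRNA2 and 60.3, 58.4 and 59.9 with siRNA3. All siRNA libraries were below all controls, by -0.90 ± 0.10, -0.93 ± 0.10 and -0.50 ± 0.10 (largest adjusted p 0.000498). In MDA-MB-231 it went from 97.0, 90.4 and 105 CPM to 64.4, 62.9 and 67.1 (-0.59 ± 0.06, adjusted p 3.93e-05).

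Of the 5 other ABCC members, 4 were tested in A549 and all 4 rose with siRNA1, where 39.0% of all genes rose. ABCC8, the sulphonylurea receptor of potassium channels, rose from 1.74, 1.85 and 2.2 CPM to 3.70, 3.49 and 3.87 (0.93 ± 0.16, adjusted p 0.000149) and also rose with siRNA2 and siRNA3 (0.68 ± 0.16 and 0.63 ± 0.17). ABCC10, a lipophilic drug exporter, was highest with siRNA2, at 29.5, 27.8 and 25.1 CPM against 10.7, 10.5 and 13.3 in control (1.26 ± 0.16, adjusted p 1.29e-05). ABCC11 went from 4 to 7 counts a library to 35 to 47 with siRNA1 (2.93 ± 0.37, adjusted p 8.1e-06), while with siRNA2 it had 3 to 6. It met the minimum for members only through that siRNA1 group, so the rule selected for this rise. ABCC6, which has near-identical pseudogenes, had counts that were not whole in 17 of 18 libraries and is uncertain. With siRNA1 in A549 the count fit gave 0.93 ± 0.25 and the deposited TPM -0.03 on log2(TPM + 1).

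Of the 4 soluble ATPases, 3 fell and 1 rose with each A549 siRNA. With these siRNAs 28.4% to 32.8% of all genes fell and 30.9% to 39.0% rose. ABCE1, which splits ribosomes for recycling, was at 256, 273 and 248 CPM in A549 control, 86.8, 107 and 80.5 with siRNA1, 122, 133 and 156 with siRNA2, and 204, 183 and 172 with siRNA3. No siRNA library reached a control, and the log2 fold changes were -1.50 ± 0.12 (adjusted p 7.11e-08), -0.92 ± 0.12 (adjusted p 1.33e-05) and -0.47 ± 0.11 (adjusted p 0.00277). In MDA-MB-231 it went from 245, 241 and 267 CPM to 200, 212 and 204 (-0.29 ± 0.05, adjusted p 0.00124). ABCF2, a translation-linked ATPase, was at 166, 171 and 181 CPM in A549 control and 114, 101 and 114 with siRNA1 (-0.65 ± 0.08, adjusted p 3.77e-06), and ABCF1, which works with initiation factor eIF2, at 118, 120 and 131 and then 86.6, 79.6 and 87.8 (-0.54 ± 0.08, adjusted p 2.47e-05). With siRNA3 ABCF2 fell by 0.24 ± 0.08 (adjusted p 0.0132), which became 0.0513 without siRNA3 replicate 2 and 0.0532 without control replicate 3. With siRNA2 the ABCF1 call (-0.20 ± 0.08, adjusted p 0.0333) was lost without siRNA2 replicate 1 or 3 (adjusted p 0.0831 and 0.13) and without control replicate 2 or 3 (0.0524 and 0.125). ABCF3, another translation-linked ATPase, went the other way, at 28.2, 31.1 and 30.8 CPM in control and 37.3, 34.5 and 39.8 with siRNA1, and its log2 fold changes in A549 were 0.31 ± 0.08, 0.32 ± 0.08 and 0.35 ± 0.08 (largest adjusted p 0.0033).

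Tested directly against each other in A549, siRNA1 and siRNA2 differed in 45.7% of the tested members and in 56.0% of all genes. For siRNA1 against siRNA3 these shares were 60% and 66.6%, and for siRNA2 against siRNA3 62.9% and 59.0%, so the family was called at rates near or below those of all genes. Between siRNA1 and siRNA2, 6 members were higher with siRNA1 and 10 lower, against 28.6% and 27.4% of all genes. Between siRNA1 and siRNA3, 14 were higher and 7 lower with siRNA1, against 34.4% and 32.3%. Between siRNA2 and siRNA3, 17 were higher and 5 lower with siRNA2, against 30.1% and 28.9%. On log2(TPM + 1) these splits were 9 and 7, 16 and 3, and 17 and 2, or 56.2%, 84.2% and 89.5% of the called members higher. All genes tilt the same way on that scale, with 65.5%, 69.4% and 60.4% of the called genes higher. Of the efflux genes, ABCG2 differed in all 3 tests, at -3.29 for siRNA1 against siRNA2 (adjusted p 8.46e-13), -1.65 for siRNA1 against siRNA3 and 1.64 for siRNA2 against siRNA3. ABCC3 did too, at 0.48, 1.99 and 1.51, as did ABCC2 at -0.49, 1.09 and 1.58 (largest adjusted p 0.000819 for these 6 tests), although the first ABCC2 difference was not called on log2(TPM + 1) (-0.33, adjusted p 0.0513). ABCC4 and ABCC5 were not called in any of the 3 tests. ABCA12 was ordered siRNA1, siRNA2, siRNA3 by tests of each step (1.06 and 1.45, adjusted p 0.000468 and 5.45e-05). ABCE1 had the reverse order in the count fit (-0.58 and -0.45, adjusted p 0.000716 and 0.00442). Its second step, siRNA2 against siRNA3, was lost in at least 1 alternative other than leaving out 1 library. In TPM these 2 groups overlapped, at 58.0 to 76.8 with siRNA2 and 68.3 to 97.9 with siRNA3.

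The effect of siRNA1 in the 2 lines can be set side by side, since the lines have their own controls. Of 26 members called in A549 and 19 in MDA-MB-231, 14 were called in both, which is 53.8% of the first and 73.7% of the second. Over all genes the calls in both lines were 53.5% of the 11404 in A549 and 72.1% of the 8457 in MDA-MB-231, so the shares of the members are near those of all genes. Over all genes 18.9% of the A549 calls were higher in both lines and 20.1% lower in both, against 15.4% and 26.9% for the members. Calls in opposite directions over all genes numbered 933 higher in A549 and lower in MDA-MB-231, and 714 the other way. These are 8.18% and 6.26% of the A549 calls, against 11.5% and 0% for the members. Both lines had 4 higher (ABCA5, ABCC3, ABCC5 and ABCC6) and 7 lower (ABCB10, ABCC4, ABCD3, ABCE1, ABCF2, ABCG1 and ABCG2). Of these, the MDA-MB-231 calls of ABCC6 (0.53 ± 0.20, adjusted p 0.0409) and ABCF2 (-0.15 ± 0.05, adjusted p 0.0387) were weak. ABCC6 reached adjusted p 0.107 to 0.126 without siRNA1 replicate 1 or 3 or control replicate 2 or 3, and ABCF2 0.0538 to 0.158 without any siRNA1 replicate or control replicate 1 or 2. ABCA3, ABCA13 and ABCB9 rose in A549 and fell in MDA-MB-231, and 0 members did the reverse. Of these, ABCA13 is uncertain, with 2 to 4 counts a library in A549 control and 4 to 10 with siRNA1. Its call was lost in each line in at least 1 alternative other than leaving out 1 library. The test of the difference between the lines called 16 members more positive in A549, 6 more negative and 15 not, against 30.8% and 27.0% of all genes. ABCG2 fell further in A549 (difference -0.52 ± 0.12, adjusted p 0.00122), and ABCC3 rose further there (0.69 ± 0.11, adjusted p 5.09e-05). The fall of ABCE1 was also larger in A549 (-1.17 ± 0.12, adjusted p 6.37e-07). For ABCC1 and ABCC4 the difference was 0.18 ± 0.11 and 0.13 ± 0.08 and was not called. BLM itself was reduced further in A549, so the depth of the knockdown and the line cannot be told apart.

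**Figure D5:**
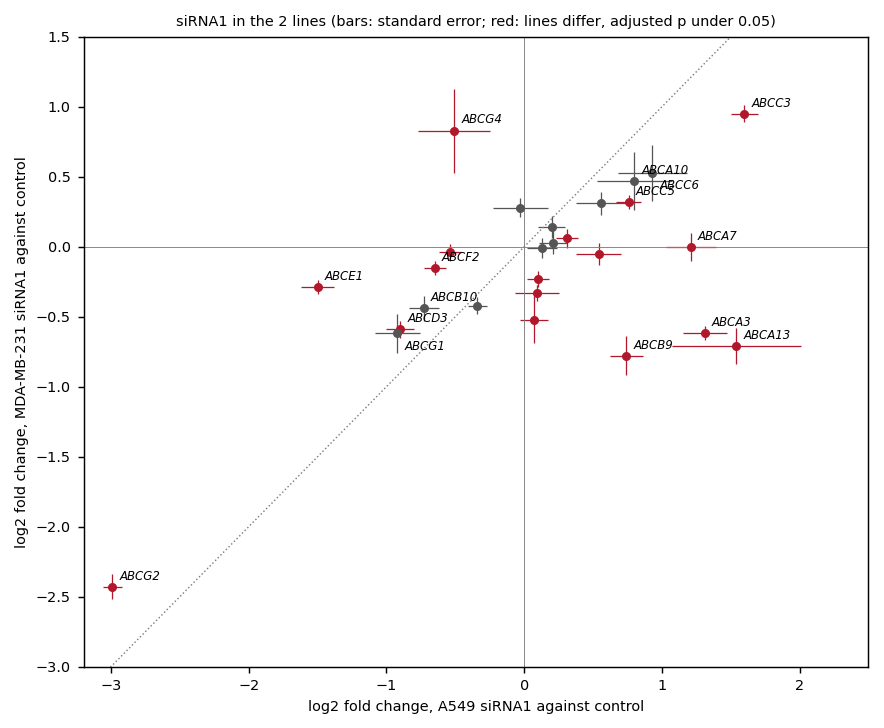
Log2 fold change with siRNA1 in A549 (x axis) and MDA-MB-231 (y axis) for members tested in both lines; bars are standard errors, red marks a tested difference between the lines and the dotted line equal change. ABCG2 is low in both at -2.99 and -2.43, and ABCA3, ABCA13 and ABCB9 sit to the right of 0 and below it.

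Genes that work beside the transporters came from lists chosen with earlier results known, so their counts are a description. For every list here and below, the shares of all genes are the measure. They were 39.0%, 32.5% and 30.9% higher and 32.8%, 28.4% and 30.4% lower with the 3 A549 siRNAs. In MDA-MB-231 they were 27.5% and 27.8%. Of 16 targets of NRF2, the oxidant-sensing factor known to drive ABCC genes, 6 rose and 8 fell with siRNA1 in A549, 1 rose and 9 fell with siRNA2, and 1 rose and 11 fell with siRNA3. In MDA-MB-231, 11 rose and 0 fell. GCLC, the catalytic subunit of glutathione synthesis, changed by -1.47 ± 0.09, -1.12 ± 0.09 and -2.10 ± 0.09 in A549, and TXNRD1, a thioredoxin reductase, by 0.95 ± 0.04 in MDA-MB-231. The siRNA1 effect on NFE2L2, the NRF2 gene itself, was -0.38 ± 0.08 in A549 and 0.35 ± 0.05 in MDA-MB-231, a difference of -0.68 ± 0.08 (adjusted p 4.69e-06). All 16 targets were higher in A549 control than in MDA-MB-231 control. Of 20 enzymes that make conjugates for ABCC export, 10 rose and 3 fell with siRNA1 in A549, 11 rose and 1 fell with siRNA2, 6 rose and 6 fell with siRNA3, and 3 rose and 3 fell in MDA-MB-231. GGT1, which splits glutathione conjugates outside the cell, rose with each A549 siRNA (1.52 ± 0.09, 1.37 ± 0.09 and 1.04 ± 0.09), and the glucuronosyltransferase UGT2B7 rose by 3.08 ± 0.24 with siRNA1.

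Of 12 LXR and cholesterol traffic genes, 3 rose and 6 fell with siRNA1 in A549, 6 rose and 3 fell with siRNA2, 3 rose and 8 fell with siRNA3, and 1 rose and 5 fell in MDA-MB-231. SCD, a desaturase under LXR and SREBP control, fell by 1.56 ± 0.12 with siRNA1 and by 2.40 ± 0.13 with siRNA3. Of 22 regulators of ABC genes, 9 rose and 7 fell, 8 rose and 4 fell, and 9 rose and 6 fell with the 3 A549 siRNAs, and 6 rose and 6 fell in MDA-MB-231. AHR, the dioxin receptor, rose with siRNA1 and siRNA2 (1.87 ± 0.13 and 1.90 ± 0.13). Of 20 genes of drug and metal uptake and sequestration, 11 rose and 5 fell, 8 rose and 8 fell, and 9 rose and 7 fell in A549, and 6 rose and 7 fell in MDA-MB-231, with the cation transporter SLC22A3 at 1.42 ± 0.07, 1.61 ± 0.07 and 0.83 ± 0.07 in A549. Of 10 further ABC proteins and partners, 5 rose and 1 fell, 4 rose and 3 fell, and 2 rose and 2 fell in A549, and 4 rose and 2 fell in MDA-MB-231. Among them KCNJ11, the channel pore that pairs with ABCC8, rose with siRNA1 by 1.62 ± 0.17 and siRNA2 by 1.43 ± 0.17 and fell with siRNA3 by 2.24 ± 0.25.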

How the data were processed

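Libraries were made from total RNA with a stranded kit after ribosomal RNA removal, per the labels' protocols. RSEM and hg19 stand in the submitters' processing notes, and the deposited expected counts carry RSEM's column names, per the file headers. Software versions, aligner and annotation: not given in the sources used here. Deposited TPM values, scaled to length and library total per the file headers, gave levels between genes and an alternative test. The deposited FPKM values were not used. Expected counts were rounded and tested with edgeR 4.0.16 in R 4.3.3: TMM scaling, filterByExpr (minimum count 10, minimum total 15), quasi-likelihood F test, Benjamini-Hochberg over all genes, threshold 0.05. A model held the A549 libraries (12) and a second the MDA-MB-231 libraries (6), and the interaction and the control comparison used the 12 control and siRNA1 libraries. CPM use each line's TMM factors. Alternatives were DESeq2 1.42.0 size factors and Wald test, no filter, limma 3.58.1 on log2 of TPM plus 1 or 0.1, the 2 groups compared alone, a replicate block and leaving out each library. The code of the tests was run on simulated counts with 1 fixed dispersion, in which far fewer genes changed than were called here. That run does not check the scaling or the error rate at the share of genes called in these data. Named were the 7 efflux genes, per comparison the 5 called members with the largest change each way whose libraries did not overlap, other members by role, and up to 3 genes per neighbouring list and comparison by adjusted p. Members and lists were chosen with earlier results of these data known. Totals per library limit the precision of low members. The values of 2 members are not reported here, and they stay in the counts of members.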

Additional observations from a re-analysis of the deposited data

Results flagged for a closer look

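The effect of siRNA1 differed between A549 and MDA-MB-231, by an edgeR interaction test, for 22 members, of which 21 are given. These are 59.5% of the tested members, near the 57.8% of all genes, so the count is not particular to the family. The values are the A549 log2 fold change minus that of MDA-MB-231. More positive in A549 were the lipid transporters ABCA3 (1.97), ABCA7 (1.26), ABCA13 (2.29), ABCA2 (0.47) and ABCA12 (5.84), the lysosomal ABCB9 (1.57) and ABCD4 (0.38), the exporters ABCC2 (0.64), ABCC3 (0.69), ABCC5 (0.48) and ABCC10 (0.63), and the ATPase ABCF3 (0.29). More negative in A549 were ABCG2 (-0.52), ABCG4 (-1.3), ABCD3 (-0.27), ABCE1 (-1.17), ABCF1 (-0.46) and ABCF2 (-0.46). ABCA4 (1.47), ABCA6 (2.86) and ABCA8 (6.07) rest on few reads: ABCA8 had 12 to 16 counts with siRNA1 in A549 and 0 in all 3 MDA-MB-231 siRNA1 libraries, so its fitted value depends on the prior count and is no bound, and ABCA6 had at most 7 counts in A549. Without A549 control replicate 1 ABCA6 was at 5.47, and on log2(TPM + 1) at -0.01. Without A549 control replicate 3 ABCA8 was at 6.69, and without MDA-MB-231 control replicate 1 at 5.14. ABCA8 met the minimum for members only through its A549 siRNA1 group, so the rule selected for this difference. ABCA12 had 3 to 9 counts in MDA-MB-231. Calls lost without 1 library were those of ABCA2 (adjusted p 0.0531 without MDA-MB-231 siRNA1 replicate 1), ABCA4 (0.0685 to 0.131 without any siRNA1 replicate of either line or control replicate 1 or 2 of either line), ABCD3 (0.061 to 0.125 without A549 siRNA1 replicate 1 or 3, any A549 control replicate or MDA-MB-231 control replicate 1), ABCD4 (0.0606 to 0.0907 without MDA-MB-231 siRNA1 replicate 1 or 3 or control replicate 2) and ABCF3 (0.0588 to 0.346 without A549 siRNA1 replicate 1 or 3, A549 control replicate 1, any MDA-MB-231 siRNA1 replicate or MDA-MB-231 control replicate 1 or 2).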

How the results depend on the processing

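Of 120 recomputed counts of members under another scaling, filter, tool, block or set of groups, 113 stayed within 1.5 times, and of 204 that left out 1 library 200 did. Members lower with siRNA1 than with siRNA3, 7 in the tests above, were 11 without the filter and 3 on log2(TPM + 1) and on log2(TPM + 0.1). Members lower with siRNA2 than with siRNA3, 5, were 9 without the filter, 8 by the DESeq2 Wald test, 2 on log2(TPM + 1), 3 on log2(TPM + 0.1), and 5 to 8 with 1 library left out, reaching 8 without siRNA1 replicate 2, siRNA2 replicate 3, siRNA3 replicate 2 or siRNA3 replicate 3. The efflux fold changes kept direction and call in 243 of 252 leave-one-out fits and 144 of 162 others. ABCC2 with siRNA1 in A549 was -0.01 without the filter, and ABCC1 in MDA-MB-231 was 0.07 on both TPM scales, 0.01 without siRNA1 replicate 2 and 0.06 without control replicate 1 (range over left-out libraries -0.09 to 0.06). None of these was called. The cause was not tested. Deviations of same-numbered libraries from their group means correlated at -0.29 to 0.13 in A549 and -0.12 to 0.11 in MDA-MB-231. For differently numbered libraries the ranges were -0.21 to 0.39 and -0.14 to 0.21. No pairing by number was seen, but deviations from means of 3 libraries cannot exclude a pairing or a shared batch. A fit with replicate block gave counts for the 4 siRNA comparisons of 16 and 9, 18 and 5, 11 and 17, and 7 and 13 (higher and lower). Median shifts of all genes on log2(TPM + 1) were 0.23 with siRNA1 in A549 and -0.18 between the controls. Depth limits the members under 1 CPM.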
